A study of Mus musculus with 8 samples.

Results

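The keratins and cornified envelope genes were taken from the stomach count table as the protein-coding genes named Krt plus a number, Sprr plus a number, Ivl, Sbsn, Krtdap, Trp63, Dsg3, Dsc3 or Pkp1. They numbered 75 of 40481 genes: 53 keratins, 15 small proline-rich protein (Sprr) genes and 7 others. Stomach RNA came from wild-type C57BL/6J mice (WT) and from Lgals8-/- mice, which lack the galectin-8 gene (KO). Each genotype was sampled at 3 and at 8 weeks of age, with 2 libraries in each of the 4 groups. No other treatment, allele or stomach region is given in the labels. Nor do they say whether the libraries of a group are separate animals, so p-values measure only the spread between these samples.

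Keratins are paired intermediate filament proteins: a type I chain and a type II chain make 1 filament. Simple keratins (Krt8 and Krt18 with Krt7, Krt19 and Krt20) are made by single-layered and glandular epithelia such as the glandular stomach. Stratified squamous epithelium, which lines the forestomach of the mouse, makes Krt5 and Krt14 in its basal layer. Above that layer come the mucosal pair Krt4 and Krt13 or the cornifying pair Krt1 and Krt10, followed by envelope proteins such as involucrin and the Sprr proteins, which transglutaminases cross-link under the cell membrane.

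The type I keratins of the set, with 27 genes, lay between 99232761 and 100269871 on chromosome 11, and 26 keratins lay between 101347444 and 102032027 on chromosome 15. That second cluster holds the type II keratins and Krt18. The 15 Sprr genes lay between 92215799 and 92500493 on chromosome 3 (GENCODE M21, GRCm38).

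The promoter windows of 5 members are shown because they stand for the kinds of behaviour described next: Krt5 (basal, chr15:101712856-101713155, minus strand), Krt13 (suprabasal, chr11:100121517-100121816, minus strand), Krtdap (differentiating layers, chr7:30787655-30787954, plus strand), Krt8 (simple, chr15:102004293-102004592, minus strand) and Sprr2f (higher at 8 weeks, chr3:92364937-92365236, plus strand). Each holds 250 bases before and 50 after the start that RefSeq gives on GRCm38.p6. Capitals mark TGANTCA, the site read by AP-1 factors, and TATAAA on either strand, the TATA box.
Krt5: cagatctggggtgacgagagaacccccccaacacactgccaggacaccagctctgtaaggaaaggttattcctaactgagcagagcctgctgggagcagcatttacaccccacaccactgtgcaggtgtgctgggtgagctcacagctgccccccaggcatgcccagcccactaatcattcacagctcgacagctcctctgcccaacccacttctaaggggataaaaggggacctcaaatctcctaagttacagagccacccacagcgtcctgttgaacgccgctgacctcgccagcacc
Krt13: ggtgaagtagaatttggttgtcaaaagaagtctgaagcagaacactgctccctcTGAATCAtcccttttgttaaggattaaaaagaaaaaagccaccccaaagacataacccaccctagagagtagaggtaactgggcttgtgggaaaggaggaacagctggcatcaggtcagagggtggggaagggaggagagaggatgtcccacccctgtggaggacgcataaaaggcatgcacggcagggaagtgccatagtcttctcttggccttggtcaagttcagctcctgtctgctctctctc
Krtdap: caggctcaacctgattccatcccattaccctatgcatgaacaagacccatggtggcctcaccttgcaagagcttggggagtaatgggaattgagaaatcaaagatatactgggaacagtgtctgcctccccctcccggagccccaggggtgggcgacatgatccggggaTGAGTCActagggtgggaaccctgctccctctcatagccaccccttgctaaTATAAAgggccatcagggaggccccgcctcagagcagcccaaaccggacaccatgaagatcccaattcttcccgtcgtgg
Krt8: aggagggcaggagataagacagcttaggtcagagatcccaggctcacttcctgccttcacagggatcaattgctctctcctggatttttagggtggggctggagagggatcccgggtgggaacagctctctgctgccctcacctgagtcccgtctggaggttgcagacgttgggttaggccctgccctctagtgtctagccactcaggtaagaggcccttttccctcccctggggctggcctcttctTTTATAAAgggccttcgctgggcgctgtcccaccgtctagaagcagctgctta
Sprr2f: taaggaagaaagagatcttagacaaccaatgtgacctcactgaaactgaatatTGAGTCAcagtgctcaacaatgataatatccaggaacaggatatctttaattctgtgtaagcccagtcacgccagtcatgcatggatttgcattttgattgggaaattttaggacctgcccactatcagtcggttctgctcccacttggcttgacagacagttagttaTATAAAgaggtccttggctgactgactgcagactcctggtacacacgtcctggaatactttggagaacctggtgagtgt

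The promoter table held 53 of the 75 members. TGANTCA, which reads the same on both strands, was in 13 of these 53 windows (24.5%) and in 7.81% of the 32851 windows of this length in the table. Krt13 was the only keratin whose window held it. The other windows with it were those of Ivl, Krtdap, Sbsn and Sprr genes. TATAAA on either strand was in 31 of the 53 (58.5%) and in 13.6% of all windows. The GC box GGGCGG, on either strand, was in 3 of the 53 (5.66%) and in 35.7% of all windows. The Krt13 window had TGAATCA beginning 196 bases before the start, the Krtdap window had TGAGTCA at 81 and TATAAA at 30 bases, and the Krt5 window held none of the 3 motifs. In the Krt8 window TATAAA and its reverse overlapped, beginning 1 and 3 bases before the start that RefSeq gives.

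The 8 libraries held 58851837 to 80686621 counts in genes, and the 75 members took 0.541% to 1.03% of them. Lgals8, which checks the genotype labels, stood at 34.6 and 33.9 counts per 1000000 counts (CPM) in WT and 1.70 and 2.78 CPM in KO at 3 weeks, and at 37.6 and 36.4 in WT and 1.94 and 4.16 in KO at 8 weeks. All 16 markers of glandular stomach epithelium had counts in every library, as did all 7 hepatocyte and all 6 smooth muscle markers. Presence of counts alone therefore does not tell tissues apart. By summed level, the glandular markers stood at 106683 to 395904 CPM, the smooth muscle markers at 3761 to 7189 CPM and the hepatocyte markers at 718 to 2645 CPM. After a filter on low counts 49 members were tested among 19647 genes. Of the 26 others, 19 were hair and nail keratins and 1, Krt27, had no count in any library. The highest value among the 26 was 2.42 CPM, for the hair keratin Krt72 in KO 3-week replicate 2 alone. A mean above 1 CPM in at least 1 group was reached by 37 members. CPM are scaled with the trimmed mean of M-values (TMM), and paired values below are given as replicate 1, then replicate 2.

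Of the 49 tested members, 22, among them the basal, suprabasal mucosal and stress-inducible keratins, were far higher in 1 library than in the other within 3 of the 4 groups. These genes were high in WT 3-week replicate 1, KO 3-week replicate 1 and WT 8-week replicate 2. They were low or at 0 in the other library of each of these groups, and 19 of the 22 were intermediate in both KO 8-week libraries. The simple keratins Krt8, Krt18 and Krt19 were high in all 8 libraries. The other simple keratins, Krt20 and Krt7, were lower, with Krt7 down to 17.2 CPM in WT 8-week replicate 1. In bulk RNA, fewer cells of a type and less RNA per cell cannot be told apart.

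**Figure D1:**
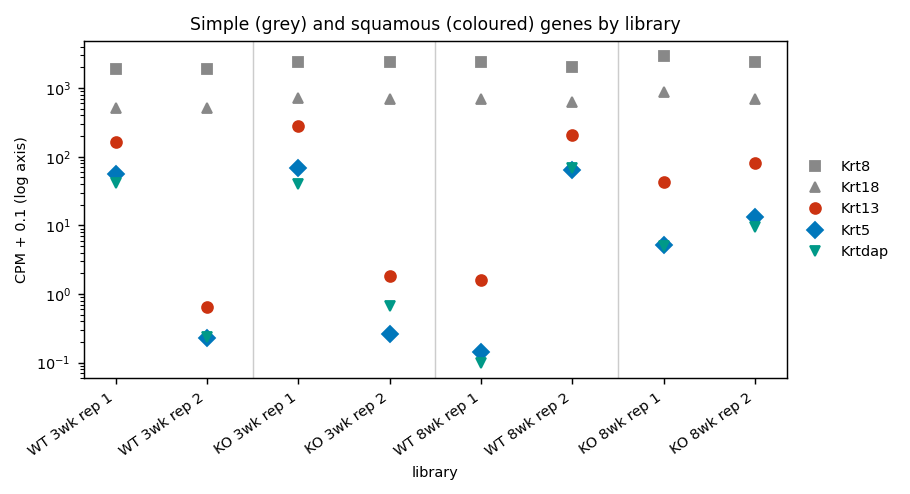
CPM + 0.1 on a log axis for the simple keratins Krt8 and Krt18 (grey) and the squamous genes Krt5, Krt13 and Krtdap (coloured) in each of the 8 libraries, 1 point per gene and library. Krt8 stayed between 1872 and 2933 CPM, while Krt5 ranged from 0.0449 CPM in WT 8-week replicate 1 to 68.4 CPM in KO 3-week replicate 1.

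Among the basal keratins, Krt5, the type II chain of basal squamous cells, stood at 56.7 and 0.126 CPM in WT and 68.4 and 0.165 CPM in KO at 3 weeks. At 8 weeks it stood at 0.0449 and 63.0 CPM in WT and at 5.15 and 13.1 CPM in KO. The counts behind these values were 5023, 10, 5589, 12, 2, 3940, 351 and 828 in the same order. The high library of the 3-week groups thus exceeded the other by 451-fold (WT) and 414-fold (KO). In WT at 8 weeks the ratio, which rests on 2 counts, was 1403 with a 95% exact counting interval of 388 to 11587.

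Krt14, the type I partner of Krt5, followed with a smaller span, because its low values did not approach 0. It stood at 20.2 and 1.49 CPM in WT and 25.3 and 1.64 in KO at 3 weeks, and at 1.35 and 33.8 in WT and 5.90 and 9.59 in KO at 8 weeks. Krt15, another basal type I keratin, ran from 0.502 CPM in WT 3-week replicate 2 to 20.3 CPM in KO 3-week replicate 1. Within the 3 groups the library ratios of Krt14 were 13.5, 15.5 and 25.1, and those of Krt15 were 24.4, 13.5 and 18.3.

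Krt13 and Krt4, the suprabasal pair of non-cornifying mucosa, differed by over 100-fold between the libraries of WT at 3 weeks, of KO at 3 weeks and of WT at 8 weeks. Krt13 stood at 165.8 and 0.540 CPM in WT and 282.6 and 1.72 in KO at 3 weeks, and at 1.5 and 206.8 in WT and 42.3 and 82.3 in KO at 8 weeks. Krt4 stood at 104 and 0.100 in WT and 225 and 0.675 in KO at 3 weeks, and at 0.112 and 105 in WT and 33.0 and 56.4 in KO at 8 weeks. Both KO 8-week libraries fell between the libraries of every other group for both genes. The library ratios of Krt4 were 1037, 334 and 937, and those of Krt13 were 307, 164 and 138, in that order of groups.

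The cornifying pair Krt1 and Krt10, which replaces the basal keratins in cornifying epithelium, followed the same libraries. Krt1 stood at 139 and 0.540 CPM in WT and 75.1 and 0.744 in KO at 3 weeks, and at 0.673 and 225 in WT and 6.37 and 29.2 in KO at 8 weeks. Krt10 stood at 106 and 2.94 in WT and 54.6 and 2.67 in KO at 3 weeks, and at 2.56 and 160 in WT and 5.65 and 16.5 in KO at 8 weeks. Krt78 and Krt80, type II keratins also made in differentiating epithelia, differed far less. Krt78 ranged from 8.53 to 26.8 CPM and Krt80 from 6.34 to 16.6 CPM over the 8 libraries. The 3 remaining cornifying keratins that were tested, Krt2, Krt76 and Krt77, stayed at or below 0.728 CPM.

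Krt6a, Krt6b, Krt16 and Krt17 are stress-inducible keratins, raised in wounded or hyperproliferating epithelium. Krt6a stood at 13.0 and 0.0251 CPM in WT and 7.39 and 0 in KO at 3 weeks, and at 0 and 10.4 in WT and 0.822 and 2.96 in KO at 8 weeks. Krt17 kept a floor, with 0.689 to 1.65 CPM in the low library of each of the 3 groups and 8.98 to 16.4 CPM in the high one. Of the 150-base windows of the longest transcript, 15.8% in Krt6a, 18.8% in Krt6b and 18.4% in Krt16 also occur in another annotated gene, so their counts are less certain than those of Krt5, which has none.

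Among the envelope precursors, Sprr3, a small proline-rich precursor of the squamous mucosa, stood at 67.6 and 0 CPM in WT and 56.4 and 0.399 in KO at 3 weeks, and at 0 and 95.4 in WT and 6.36 and 17.2 in KO at 8 weeks. Against a floor of 3 counts in the library at 0, it was at least 1794-fold higher in WT 3-week replicate 1 and at least 1417-fold higher in WT 8-week replicate 2. Krtdap, which encodes a keratinocyte differentiation-associated secreted protein, stood at 40.7 and 0.138 in WT and 39.8 and 0.578 in KO at 3 weeks, and at 0 and 67.9 in WT and 4.92 and 9.27 in KO at 8 weeks.

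Sbsn, which encodes suprabasin, had library ratios of 11.4, 10.5 and 22.8 in the 3 groups, with 0.987 to 1.55 CPM in the low libraries. Ivl, which encodes involucrin, was scarce throughout, with 1.37 CPM at most and no count in KO 3-week replicate 2 and KO 8-week replicate 1. The low-level genes Sprr1b, Sprr2d, Sprr2i and Sprr2j-ps had counts mainly in the same libraries as Sprr3. Sprr2b followed less closely, with 85 and 50 counts in KO at 3 weeks and 42 and 21 in KO at 8 weeks. Sprr2f, also low, differed mainly by age, as given below. Sprr2d reached 2.33, 0.844 and 3.10 CPM in WT 3-week replicate 1, KO 3-week replicate 1 and WT 8-week replicate 2 and at most 0.0275 CPM in the other library of those groups, and Sprr1b had no count in those other libraries.

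Trp63, which encodes the p63 factor that basal squamous cells depend on, stood at 3.10 and 0 CPM in WT and 3.40 and 0.0413 in KO at 3 weeks. At 8 weeks it stood at 0.0449 and 3.39 in WT and at 0.352 and 0.601 in KO. The desmosomal genes Pkp1 (plakophilin 1) and Dsg3 (desmoglein 3) followed. Pkp1 stood at 15.7 and 0.402 CPM in WT and 18.4 and 0.936 in KO at 3 weeks, and at 0.135 and 16.1 in WT and 1.34 and 4.07 in KO at 8 weeks. Dsc3 (desmocollin 3) had smaller ratios of 3.36, 3.61 and 5.70, and its KO 8-week values of 0.470 and 0.411 CPM lay below every other library.

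**Figure D2:**
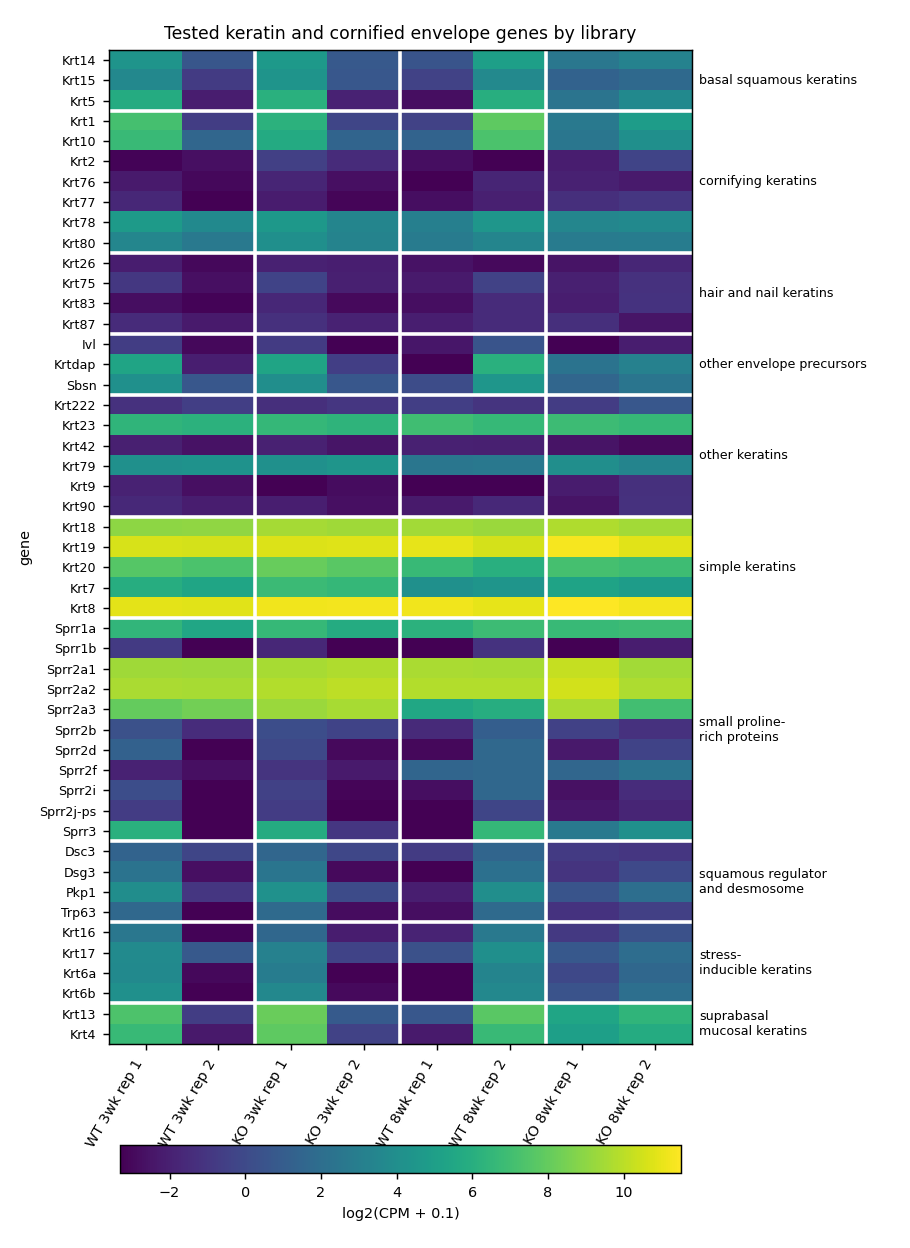
Heat map of log2(CPM + 0.1) for the 49 tested members (rows, grouped by role) in the 8 libraries (columns, white lines between groups); yellow is high and dark blue is low. Basal, suprabasal, stress-inducible and envelope genes are dark in WT 3-week replicate 2, KO 3-week replicate 2 and WT 8-week replicate 1, while Krt8, Krt18, Krt19, Sprr2a1 and Sprr2a2 are bright in every column.

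The simple keratins gave the contrast. Krt8 stood at 1900.5 and 1872 CPM in WT and 2373 and 2443 in KO at 3 weeks, and at 2368 and 2001 in WT and 2933 and 2438 in KO at 8 weeks. Krt18, its type I partner, ranged from 511 to 865 CPM and Krt19 from 1486 to 2512 CPM. Per kilobase of exon, Krt8 was 2.37 to 2.73 times Krt18 in all 8 libraries. Krt7 and Krt20 were lower and differed between the ages, as given below, but in none of the 4 groups did a simple keratin differ by 4-fold between the libraries.

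A score set the mean log2 CPM of the 9 basal, suprabasal and stress-inducible keratins against that of the 5 simple keratins. It was -4.14 and -10.85 in WT and -4.57 and -10.61 in KO at 3 weeks, and -10.51 and -3.51 in WT and -7.17 and -5.70 in KO at 8 weeks. As a share of the summed counts of both sets, the squamous keratins made up 8.79% and 0.109% in WT and 11.1% and 0.126% in KO at 3 weeks. At 8 weeks they made up 0.0974% and 9.92% in WT and 1.41% and 3.30% in KO. Their 95% Wilson intervals, which cover counting error only, ran from 0.0854% to 0.111% for the lowest share and from 11.1% to 11.2% for the highest. The high library of WT at 8 weeks was replicate 2 and that of both 3-week groups was replicate 1.

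By group, the score was -7.50 ± 4.75 (SD, n = 2) in WT and -7.59 ± 4.27 in KO at 3 weeks, and -7.01 ± 4.95 in WT and -6.43 ± 1.04 in KO at 8 weeks. The means differed by less than the SD of 3 of the 4 groups. With 2 libraries against 2, an exact permutation test cannot go below p = 0.333, so none was made. Leaving out 1 library turned the sign of each of the 4 differences between group means: from -3.45 to 3.26 for genotype at 3 weeks, -2.93 to 4.07 for genotype at 8 weeks, -3.01 to 3.99 for age in WT and -1.86 to 4.17 for age in KO.

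Differences between libraries were then counted on the log2 CPM scale with a prior count of 2, which shrinks the ratios of low genes. Of the 49 tested members, 25 differed by at least 4-fold between the WT 3-week libraries, against 1.74% of all tested genes, and all 25 were higher in replicate 1. In KO at 3 weeks 23 did, against 2.92% of all genes, all higher in replicate 1. In WT at 8 weeks 26 did, against 4.71%, all higher in replicate 2. In KO at 8 weeks 6 did, against 4.50%, with 5 higher in replicate 2. The sixth, Sprr2a3, was higher in replicate 1.

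At least 4-fold in all 3 groups, in the same libraries, were 22 of the 49 members, against 0.825% of all tested genes (162 genes); in the opposite direction were 3 genes in all, or 0.0153%. The 22 were every basal, suprabasal, stress-inducible and other envelope member, Krt1 and Krt10, 5 Sprr genes (Sprr1b, Sprr2d, Sprr2i, Sprr2j-ps and Sprr3) and Trp63, Pkp1 and Dsg3. No simple keratin, hair or nail keratin or other keratin was among them. KO 8-week replicate 2 exceeded replicate 1 in all 22, and both KO 8-week libraries lay between the high and the low libraries in 19. Of the 11 of these 22 that had a promoter window, 7 held TGANTCA, against 3 of 21 windows of the other tested members. The 7 were Krt13, Ivl, Krtdap, Sbsn, Sprr1b, Sprr2d and Sprr2i, and the 3 were Sprr1a, Sprr2b and Sprr2f, so the split follows gene family. The count is a description of these letters, and the 22 were chosen by their values.

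**Figure D3:**
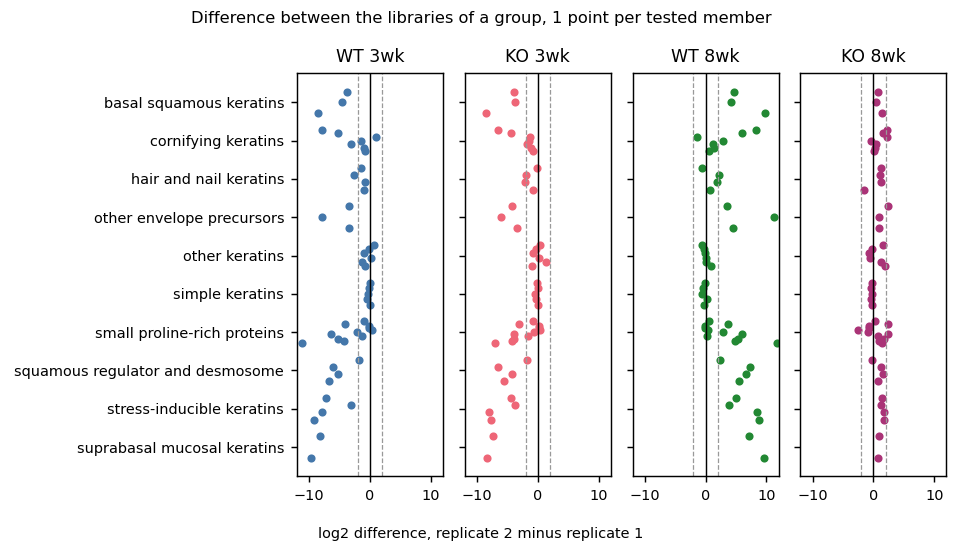
Difference between the 2 libraries of each group, replicate 2 minus replicate 1, on the log2 CPM scale, 1 point per tested member in rows by role; dashed lines mark 4-fold. Squamous roles lie to the left in both 3-week groups (25 and 23 members past 4-fold), to the right in WT at 8 weeks (26), and by smaller amounts to the right in KO at 8 weeks (6, of which 5 to the right), and the simple keratins lie near 0 in each panel.

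The proportions among squamous genes were compared per kilobase of exon in the 5 libraries where both genes had at least 50 counts. Krt13 was 3.53, 4.99 and 3.96 times Krt5 in WT 3-week replicate 1, KO 3-week replicate 1 and WT 8-week replicate 2, and 9.91 and 7.58 times Krt5 in the KO 8-week libraries. Krt4 was 1.89, 3.39 and 1.72 times Krt5 in the first 3 and 6.60 and 4.43 times in the KO 8-week libraries. Krt17 was 0.342, 0.186 and 0.370 of Krt5 in the first 3 and 0.448 and 0.409 in the KO 8-week libraries. Krt14 was 0.444, 0.463 and 0.670 of Krt5 in the first 3 and 1.43 and 0.915 in the KO 8-week libraries. The values of the KO 8-week libraries thus lay above the others for Krt13, Krt4, Krt17 and Krt14, and all these ratios share Krt5 as denominator. This did not hold for Krt15, Krt6a, Krt6b and Krt16, given below. Krt17 stood at 1.63 CPM in KO 8-week replicate 1, within the 0.689 to 1.65 CPM of the libraries low in Krt5. Krt14 stood there at 5.90 CPM, against 1.35 to 1.64 CPM in those low libraries. The part of these floors in the ratios was not tested.

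Some other proportions did not set the KO 8-week libraries apart. Pkp1 was 0.112 to 0.136 of Krt5 in these 5 libraries, and Sprr3 was 1.48 to 2.72 times Krt5. Krt1 was 1.22, 0.546 and 1.77 times Krt5 in the first 3 libraries, and 0.615 and 1.11 times in the KO 8-week libraries. In the same order, Krt15 was 0.269, 0.369 and 0.244 of Krt5, then 0.584 and 0.315. Krt6a was 0.208, 0.0982 and 0.150 of Krt5, then 0.145 and 0.205. Krt6b was 0.297, 0.171 and 0.186 of Krt5, then 0.241 and 0.315. Krt16 was 0.142, 0.0618 and 0.143 of Krt5, then 0.129 in KO 8-week replicate 2, with under 50 counts in replicate 1. No test was made on these ratios, since only 1 library of 3 groups enters them. With the mean log2 level of 21 further cornified envelope genes as a covariate, an alternative chosen after the data were seen, edgeR called Krt4 between the genotypes at 8 weeks, where it called 0.0204% of all genes. In that fit 7 members were called between the ages in KO, against 8.18% of all genes: Dsc3, Krt15, Krt4, Krt7, Krt78, Krt80 and Sprr2f.

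Some squamous genes that are not members differed between the same libraries. Of 21 tested further cornified envelope genes, 16 were at least 4-fold higher in the 3 high libraries. One of them, Lor, the gene of the envelope protein loricrin, stood at 87.9 and 0.528 CPM in WT and 78.2 and 1.23 in KO at 3 weeks, and at 0.224 and 115 in WT and 15.4 and 22.3 in KO at 8 weeks. Of 17 further squamous adhesion genes 4 did so, and of 11 further squamous regulators 2. Of the glandular (16), smooth muscle (6), striated muscle (8), hepatocyte (7), mesothelium (5), intestinal (5) and pancreatic (6) markers that were tested, none did.

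Smooth muscle markers moved with the squamous members by a smaller factor. Their summed level was 5740 and 3958 CPM in WT and 7189 and 4964 in KO at 3 weeks, and 4551 and 5794 in WT and 3761 and 5362 in KO at 8 weeks. All 6 genes of the list were higher in the library with more squamous keratin in each of the 4 groups, by 1.45, 1.45, 1.27 and 1.43-fold over the sum, and none was at 0 in any library. The summed glandular markers, of which Pgc (pepsinogen C) was the largest, differed by at most 1.14-fold between the libraries of a group. Muc6, a gland mucin of the same list, differed more, with 356 and 194 CPM in WT and 313 and 374 in KO at 3 weeks, and 497 and 789 in WT and 767 and 396 in KO at 8 weeks. KO 3-week replicate 1 also held more striated muscle marker RNA, 78.8 CPM over 9 genes against 20.2 to 39.6 CPM in the others, and KO 8-week replicate 2 more mesothelial marker RNA, 16.3 CPM over 6 genes against 0.359 to 4.42 CPM. Hepatocyte markers summed to 1964 CPM over 7 genes in KO 3-week replicate 2, a library low in squamous keratin, against 718 CPM in replicate 1. All 7 genes were higher there, with Alb (albumin) at 836 against 30.4 CPM. In the library with less squamous keratin, 5 of the 7 were higher in WT at 3 weeks, 6 in WT at 8 weeks and 1 in KO at 8 weeks. Alb stood at 75.2 and 330 CPM in KO at 8 weeks. Over all libraries the sum ranged from 718 to 2645 CPM. Its largest part in every library was Apoa1, so the sum did not track Alb. In WT 8-week replicate 1, which had the highest sum, Apoa1 stood at 2333 CPM and Alb at 103 CPM. The part of these markers in the squamous values was not tested.

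**Figure D4:**
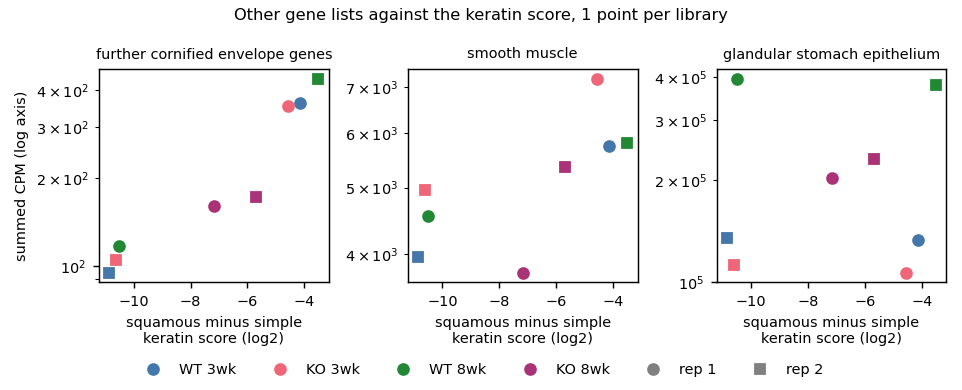
Summed CPM (log axis) of further cornified envelope genes, smooth muscle markers and glandular stomach markers against the squamous minus simple keratin score (log2), 1 point per library, coloured by group, with circles for replicate 1 and squares for replicate 2. Envelope genes rise with the score over the 8 libraries from 94.9 to 438 CPM, and smooth muscle markers are higher at the higher score within each colour. The glandular sum, of which Pgc is the largest part, separates by group. Not every glandular gene does so: Gata6 stood at 116 and 130 CPM in WT at 3 weeks and 125 and 116 at 8 weeks.

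Genotype, the comparison for which the study was designed, gave no called member at either age. At an adjusted p under 0.05 in edgeR's quasi-likelihood test with Benjamini-Hochberg adjustment over all 19647 genes, 0 of 49 members were called at 3 weeks, where 0.0153% of all genes were called, and 0 at 8 weeks, where 0.326% were. The unadjusted p was under 0.05 for 4 members at 3 weeks (7.03% of all genes) and 8 at 8 weeks (19.2%). DESeq2 called 2 members at 3 weeks (0.916% of all genes) and 4 at 8 weeks (8.94%), and limma voom 0 and 0 (0.0305% and 0.143%). The interaction of genotype and age called 0 members and 0% of all genes in edgeR, with 2 members at unadjusted p under 0.05 (8.79% of all genes), 1 member by DESeq2 (0.891%) and 0 by limma voom (0%). The mean genotype effect over both ages called 0 members and 0.422% of all genes, with 7 members at unadjusted p under 0.05 (18.4%), 7 by DESeq2 (7.21%) and 0 by limma voom (0.285%).

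For the squamous members this result carries the spread between libraries. The fitted log2 fold change of Krt5 for KO against WT was 0.27 at 3 weeks with a standard error of 3.29 (edgeR adjusted p = 0.997), and -1.80 at 8 weeks with a standard error of 3.43 (adjusted p = 0.823). Leaving out 1 library moved the first between -7.42 (without KO replicate 1) and 8.07 (without WT replicate 1), and moved the second to 7.61 without WT replicate 2. A fit without 1 library leaves its group with a lone library, which is assumed to vary like the other groups. Of the 22 members, none was called for genotype or age except in the fit with the envelope covariate, which called Krt4 and, for age in KO, also Krt15. Over all 49 members, the groups did not overlap for 11 between the genotypes at 3 weeks (49.8% of all genes), 12 at 8 weeks (43.5%), 11 between the ages in WT (59.5%) and 14 in KO (56.6%).

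Simple keratins had smaller errors. Krt7 stood at 59.8 and 42.6 CPM in WT and 112 and 92.9 in KO at 3 weeks, and at 17.2 and 21.4 in WT and 38.4 and 29.2 in KO at 8 weeks. KO was above WT in both comparisons without overlap, but neither difference passed the threshold in edgeR with TMM scaling and no block. At 3 weeks it was 1.0 on the log2 scale with a standard error of 0.21 (adjusted p = 0.508), and at 8 weeks it was 0.81 with a standard error of 0.22 (adjusted p = 0.131). Under DESeq2 both passed, with adjusted p of 0.000428 and 0.00304. In edgeR the first passed with a crossed replicate block (adjusted p = 0.0415), an alternative added after the data were seen. The second passed in edgeR with library totals (adjusted p = 0.0204), which called 5457 of 19647 genes at 8 weeks and shifted the median gene by 0.35. Over all alternatives the adjusted p ranged from 0.000428 to 1 at 3 weeks and from 0.00304 to 0.435 at 8 weeks.

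Age gave called members, and they were not the 22 that differed between libraries. In WT 5 of 49 members were called between 3 and 8 weeks, against 14.3% of all genes, with 3 lower (7.41% of all genes) and 2 higher (6.92%) at 8 weeks. In KO 2 were called, against 10.8% of all genes, with 1 lower (6.55% of all genes) and 1 higher (4.21%). The comparisons share no library with each other, but each shares its libraries with the genotype comparisons. They also come from the same fit over all 8 libraries and use the same estimate of spread per gene, so they are not independent. Both shares of members lay below those of all genes.

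Krt7, a simple keratin of ducts and transitional epithelia, fell by 1.41 on the log2 scale in WT (SE 0.22, edgeR adjusted p = 0.00967) and by 1.60 in KO (SE 0.22, adjusted p = 0.00824). Its means were 51.2 ± 12.1 CPM (SD, n = 2) in WT and 103 ± 13.6 in KO at 3 weeks, and 19.3 ± 3.00 in WT and 33.8 ± 6.46 in KO at 8 weeks. The WT call was lost without WT 3-week replicate 1 (adjusted p = 0.0594) and without WT 8-week replicate 1 (0.0615), and the KO call without KO 3-week replicate 1 (0.0594). Over 18 alternatives the adjusted p ranged from 8.17e-10 to 0.0615 in WT and from 1.01e-12 to 0.0594 in KO. In each genotype both 8-week libraries lay below both 3-week libraries.

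Krt79, a type II keratin known from hair follicle ducts, stood at 17.6 and 19.1 CPM in WT and 17.3 and 21.2 in KO at 3 weeks. At 8 weeks it stood at 5.50 and 5.96 in WT and 15.9 and 10.5 in KO. In WT it fell by 1.68 on the log2 scale (SE 0.21, edgeR adjusted p = 0.00369), a call kept with each library left out and under every other alternative (adjusted p 1.66e-11 to 0.0386). In KO the difference was -0.54 (SE 0.20, edgeR adjusted p = 0.124), and the interaction, 1.13 (SE 0.28), had an edgeR adjusted p of 0.535. Krt79 was the 1 member that DESeq2 called for the interaction, where it called 0.891% of all genes. As the methods differed, a difference between the genotypes in this change was not established. At 8 weeks KO exceeded WT by 1.20 (SE 0.20, edgeR adjusted p = 0.0687). The difference was 0.88 without KO replicate 1 and 1.47 without KO replicate 2, fits that remove the spread of that group. It passed the threshold under DESeq2 (adjusted p = 2.12e-05) and in edgeR with library totals (0.0140) or no filter on low counts (0.0113). Those settings called 1757 of 19647, 5457 of 19647 and 441 of 27704 genes, against 64 of 19647 in the main fit. Library totals also shifted the median gene by 0.35. Over the alternatives the adjusted p ranged from 2.12e-05 to 0.435.

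Krt20, a simple keratin of differentiated gastric surface and intestinal cells, stood at 193 and 159 CPM in WT and 272 and 211 in KO at 3 weeks, and at 101 and 66.7 in WT and 144 and 121 in KO at 8 weeks. In WT it fell by 1.07 (SE 0.23, edgeR adjusted p = 0.0273). In KO the difference was -0.86 (SE 0.23, adjusted p = 0.0607). The WT call was lost with any of 5 libraries left out, the 2 of WT at 3 weeks, WT 8-week replicate 2 and both of KO at 8 weeks, with adjusted p from 0.0561 to 0.164, and over all alternatives from 3.55e-06 to 0.164.

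Krt23, a type I keratin, stood at 82.2 and 74.1 CPM in WT at 3 weeks and 126 and 99.6 in WT at 8 weeks. In KO it stood at 94.4 and 79.0 at 3 weeks and 115 and 98.3 at 8 weeks. It was 0.53 higher at 8 weeks in WT on the log2 scale (SE 0.14, edgeR adjusted p = 0.0485), just inside the threshold. Scaling by library totals, which moves the median of all genes by -0.56 in this comparison, turned its sign to -0.037, and the call was lost with any of 5 libraries left out, both of WT and both of KO at 3 weeks and WT 8-week replicate 1 (adjusted p 0.0678 to 0.271, and 0.0022 to 0.854 over all alternatives).

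Sprr2f was the 1 envelope member that edgeR called between the ages. It stood at 0.169 and 0.0502 CPM in WT and 0.367 and 0.110 in KO at 3 weeks, from 4 to 30 counts a library. At 8 weeks it stood at 2.78 and 3.12 in WT and 2.88 and 4.98 in KO, from 124 to 315 counts. It rose by 4.71 on the log2 scale in WT (SE 0.73, edgeR adjusted p = 0.00829) and by 4.02 in KO (SE 0.69, adjusted p = 0.0143). Every 8-week library lay above every 3-week library, whether its squamous keratins were high or low. Within each group, Sprr2f was still higher in the library with more squamous keratin. The ratios were 3.37 in WT and 3.33 in KO at 3 weeks, and 1.12 in WT and 1.73 in KO at 8 weeks. The WT call was lost without WT 3-week replicate 2 (adjusted p = 0.0686) and the KO call without KO 3-week replicate 2 (0.0832) or with the 4 KO libraries fitted alone (0.0770). Over the alternatives the adjusted p ranged from 5.86e-11 to 0.0686 in WT and from 4.26e-09 to 0.0832 in KO. None of its 150-base transcript windows occurs in another annotated gene.

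**Figure D5:**
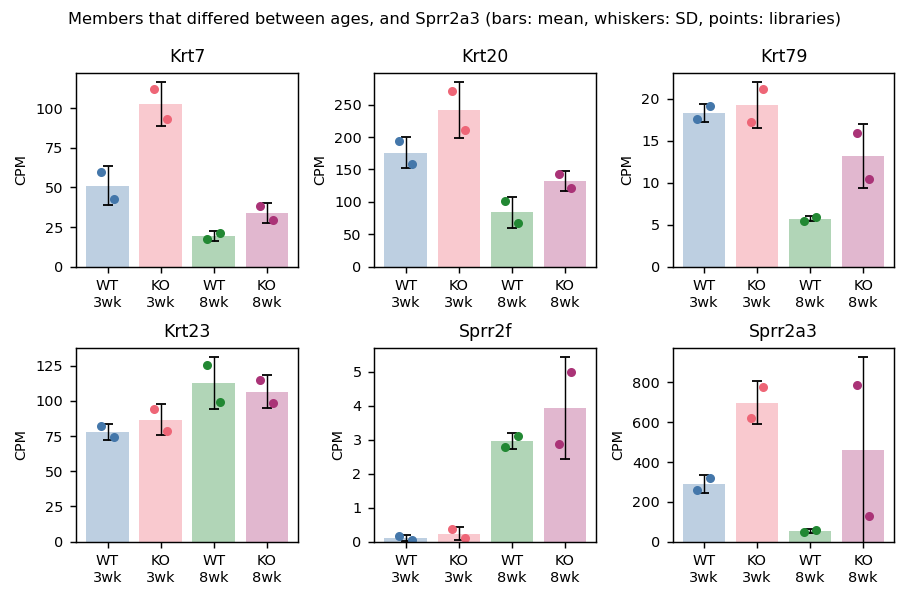
CPM of the 5 members called between ages (Krt7, Krt20, Krt79, Krt23 and Sprr2f) and of Sprr2a3 in the 4 groups; bars are means, whiskers are SD (n = 2) and points are libraries, with axes from 0. Krt7 and Krt20 are lower and Sprr2f higher at 8 weeks in both genotypes, and Sprr2a3 spans 129 to 789 CPM within KO at 8 weeks.

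The most abundant Sprr genes did not follow the squamous keratins. Sprr2a1 ranged from 639 to 1181 CPM and Sprr2a2 from 749.5 to 1425 CPM, with a count ratio between them of 0.824 to 0.868 in every library. These copies are nearly identical: 89.6% of the 150-base windows of the Sprr2a1 transcript and 89.0% of those of Sprr2a2 occur in another gene of the Sprr2a group. The annotated Sprr2a2 locus (chromosome 3, 92215920 to 92256724) overlaps that of Sprr2a1 (92215799 to 92221911) on the same strand, with 43 shared exon bases. Their separate counts are therefore uncertain.

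Sprr2a3 (chromosome 3, 92285417 to 92291405), of whose windows 19.0% are shared, differed more. It stood at 257 and 322 CPM in WT and 621 and 776 in KO at 3 weeks, and at 46.6 and 59.7 in WT and 789 and 129 in KO at 8 weeks. KO lay above WT without overlap at both ages, but the 8-week log2 difference of 3.11 (SE 0.88, edgeR adjusted p = 0.168) did not pass. That difference was 1.30 without KO 8-week replicate 1 (adjusted p = 0.0469) and 3.89 without KO 8-week replicate 2 (0.00186). Both of these fits remove the wide spread of that group, so their error comes from the other groups. DESeq2 gave an adjusted p of 0.00161 and edgeR with library totals 0.0467, settings that called 1757 and 5457 of 19647 genes at 8 weeks. Over the alternatives the adjusted p ranged from 0.00161 to 0.435. With age in WT the log2 difference was -2.45 (SE 0.86, edgeR adjusted p = 0.148), which was called under DESeq2, library totals, the 4 WT libraries fitted alone and without either KO 8-week library. Of the counts of the 3 copies, Sprr2a3 held 14.9% and 18.8% in WT and 27.2% and 28.9% in KO at 3 weeks, and 2.66% and 3.47% in WT and 23.2% and 7.76% in KO at 8 weeks.

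Sprr1a, a further envelope precursor, was between these and the squamous keratins. It stood at 86.8 and 43.1 CPM in WT and 98.6 and 57.0 in KO at 3 weeks, and at 73.5 and 115 in WT and 100.4 and 117 in KO at 8 weeks. The library with more squamous keratin held 2.01, 1.73 and 1.56 times as much in the first 3 groups, against 451, 414 and 1403 times for Krt5.

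The remaining members were scarce. The 4 tested hair and nail keratins, Krt26, Krt75, Krt83 and Krt87, stayed at or below 0.685 CPM. Krt75, a hair follicle companion-layer keratin, was 8.54, 4.52 and 5.84-fold apart within the 3 groups, in the same direction as Krt5, on 4 to 56 counts. With the prior count its log2 difference in KO at 3 weeks was -1.99, just under 4-fold, which kept it out of the 22. Krt222 and Krt90 reached 1.5 and 0.332 CPM, both in KO 8-week replicate 2.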

How the data were processed

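The authors deposited 1 table of raw counts per Ensembl gene, which were not normalized. Per the submitters' processing notes, bcl2fastq, STAR 2.7.9a and featureCounts 2.0.3 of Subread were used with GRCm38. The annotation release, strand setting and handling of multi-mapping reads were not given in the sources used here. Near-identical copies may therefore share reads. Of 40757 lines, 276 repeated a gene ID with the same counts and were left out. The 26 gene symbols that had been turned into dates were restored.

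The members and lists were chosen with earlier results of these data known. Genes were kept by edgeR's filterByExpr, scaled by TMM and fitted over all 8 libraries with edgeR 4.0.16 (R 4.3.3), using 1 coefficient per group and 4 residual degrees of freedom. Quasi-likelihood tests covered 6 contrasts, with Benjamini-Hochberg adjustment over 19647 genes. Log2 CPM used a prior count of 2. The fit was tested on simulated data. Positions and exon lengths came from GENCODE M21, promoters from RefSeq.

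Named genes were the targeted gene, up to 4 members with the highest mean level in each role, every called member, and genes of the other lists where they bear on a result. Others named by the text, such as Lor, Krt72, Krt9 and the low-level Sprr genes, were chosen after their values were seen. Alternatives were DESeq2 1.42.0, limma 3.58.1 (voom), other scalings, no filter, subsets of libraries, a replicate block and a squamous covariate. Depth ran from 58851837 to 80686621 counts, and intervals cover counting error only.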

Additional observations from a re-analysis of the deposited data

Results flagged for a closer look

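Krt9, a keratin of palm and sole skin, moved in opposite directions between the groups at very low levels. It had 15 and 4 counts in WT and 0 and 3 in KO at 3 weeks, and 0 and 0 in WT and 8 and 20 in KO at 8 weeks. The KO minus WT difference of mean CPM was 0.306 higher at 8 than at 3 weeks, and the change with age was likewise 0.306 CPM higher in KO than in WT, which is the same quantity. Every library of one contrast moved one way and every library of the other the opposite way; the edgeR interaction test did not call it (adjusted p = 0.535), and 0 genes in all were called for it. No group had more than 2 libraries, so no library could be singled out within a group by its distance from the others.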

How the results depend on the processing

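Numbers of called members and genes are listed for KO against WT at 3 and at 8 weeks, then for 8 against 3 weeks in WT and in KO, then for the interaction and the mean genotype effect. Main values were 0, 0, 5, 2, 0 and 0 members and 3, 64, 2814, 2115, 0 and 83 genes. Library totals gave 0, 8, 6, 4, 0 and 7 members and 4, 5457, 9598, 5238, 0 and 3063 genes, and shifted the median gene by 0.35 for genotype at 8 weeks, -0.56 and -0.27 for age and 0.21 for the mean genotype effect. No filter gave 0, 1, 4, 2, 0 and 3 members and 23, 441, 2968, 2399, 0 and 383 genes. DESeq2 gave 2, 4, 7, 3, 1 and 7 members and 180, 1757, 3901, 3766, 175 and 1416 genes. Limma voom gave 0, 0, 4, 2, 0 and 0 members and 6, 28, 2744, 2129, 0 and 56 genes. Fitting only the 4 libraries compared gave 2, 0, 7 and 1 members and 523, 0, 3139 and 241 genes for the first 4. DESeq2 size factors and upper-quartile scaling called 0, 0, 5, 2, 0 and 0 members. The envelope covariate, added after seeing the data, gave 0, 1, 6, 7, 0 and 2 members and 2, 4, 2336, 1608, 0 and 30 genes.

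Leaving out 1 library gave 0 to 0, 0 to 5, 2 to 6, 1 to 5, 0 to 2 and 0 to 7 members and 0 to 16, 1 to 1255, 382 to 4123, 268 to 3008, 0 to 419 and 2 to 1089 genes. The most genotype calls at 8 weeks came without either KO 8-week library.

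Replicate numbers did not pair the libraries: deviations of same-numbered libraries correlated between -0.46 and 0.47 over 6 pairs of groups. With a replicate block 0, 0, 5, 3, 0 and 1 members and 3, 63, 2463, 1715, 0 and 75 genes were called. With the WT 8-week numbers crossed, an addition made after seeing the data, the block gave 1, 0, 3, 2, 0 and 1 members and 4, 4, 2342, 1602, 0 and 36 genes.

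Signs turned for Krt23 with age in WT under library totals (-0.037) and for Krt5, which was never called. Krt5 with age in KO was 1.03 (voom), 3.25 (crossed block) and 0.27 (covariate) against -1.91. With age in WT it was -0.40 (library totals), -0.024 (voom) and -0.66 (covariate) against 0.15. For genotype at 8 weeks it was 1.40 (voom), 3.33 (crossed block) and 1.06 (covariate) against -1.80. Leaving out 1 library gave -2.91 to 5.77, -9.26 to 7.95 and -2.79 to 7.61 for these, and -7.42 to 8.07 for genotype at 3 weeks. The cause was not tested.

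The squamous minus simple score of the KO 8-week libraries became -6.13 for replicate 1 from summed CPM, and -8.80 and -7.38 against Krt8 and Krt18 alone. Suprabasal minus basal became 2.48 and 2.41 there from summed CPM. Stress-inducible minus basal became -0.33, -1.98 and -0.62 from summed CPM in WT 3-week replicate 2, KO 3-week replicate 2 and WT 8-week replicate 1, and -3.45 and -2.65 in the last 2 with a prior count of 0.5, where counts were few. Leaving out 1 library moved the differences between group means of the score from -3.45 to 3.26, -2.93 to 4.07, -3.01 to 3.99 and -1.86 to 4.17 for the first 4 comparisons. Of the 22 members that differed between libraries, Krt4 and Krt15 were called in the covariate fit and none in the other fits. With 2 libraries a group, the spread between libraries limits these comparisons; the effect of depth was not tested.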

Other observations

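Relations between layers also differed between libraries. Suprabasal minus basal keratins, as mean log2 CPM, was 2.45 and -0.88 in WT and 2.94 and 0.49 in KO at 3 weeks, and 0.17 and 2.31 in WT and 3.15 and 3.18 in KO at 8 weeks. Stress-inducible minus basal keratins was -1.07 and -2.30 in WT and -2.22 and -2.78 in KO at 3 weeks, and -1.79 and -1.47 in WT and -2.12 and -1.44 in KO at 8 weeks. In the libraries with the least squamous keratin these differences rest on few counts, 224 to 475 over the 9 keratins together.

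Among further squamous regulators, Sox2, a factor of stomach and squamous progenitors, stood at 13.0 and 13.8 CPM in WT and 13.2 and 11.2 in KO at 3 weeks, and at 8.91 and 8.29 in WT and 7.25 and 6.19 in KO at 8 weeks. It fell by 0.64 in WT (edgeR adjusted p = 0.0234) and by 0.86 in KO (adjusted p = 0.0116) with age, and did not separate the libraries of a group as Krt5 did.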
